A study of Mus musculus with 11 samples.

Results

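The Trpa1 and Tac1 peptidergic nociceptors of the mouse trigeminal ganglion were followed here as a set of nuclei chosen by their measured transcripts. A nucleus was a member when it held at least 1 unique molecular identifier (UMI, a tag that marks 1 captured RNA molecule) of Trpa1 and at least 3 UMIs in all of Tac1, Trpv1 and Gfra3. Of 40359 nuclei in 8 count tables, 1495 met the rule, a share of 3.70%. Because these 4 genes chose the members, their values are given below as description and were not tested.

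The study sequenced nuclei of trigeminal ganglia that had been enriched for neurons with an antibody to NeuN, and the authors removed low-quality nuclei and non-neuronal clusters before deposit. Every table came from pooled ganglia of mice of both sexes, older than 6 weeks, so animals were not separable within a table. The uninjured control, wild-type C57BL mice, was profiled with the 10x platform and again with Drop-seq, whose 4 libraries share 1 table in which nuclei are not tied to a library. The other 6 tables, all 10x, came from the ganglion on the injured side at day 2, 7, 21 or 75 after infraorbital nerve transection (IOT, a cut of superficial branches of the nerve that supplies the whisker pad), from mice at day 2 after facial skin cuts, all C57BL, and from Fos-tTA; tetO-mCherry-2A-Gnaq double heterozygous mice with scratch lesions. The last group has a mixed FVBN, C57BL and 129 background, the cause of its scratching is not clear from the study's methods, and no time after the lesions is given. Each injury condition is thus 1 library, genotype and lesion cannot be told apart in the scratch lesions, and no difference between single conditions was tested.

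Peptidergic nociceptors are small unmyelinated or thinly myelinated sensory neurons that report noxious heat, irritant chemicals and inflammation, and that release the neuropeptides substance P and CGRP from both their peripheral and central endings. Trpa1 encodes a cation channel opened by mustard oil and other reactive irritants, and Trpv1 encodes the channel opened by capsaicin and noxious heat. Tac1 encodes the precursor of substance P, and Gfra3 encodes the receptor subunit that binds artemin, a survival factor for part of these neurons.

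The 8 tables differed in depth. Members had a median of 1792 to 5071 UMIs per nucleus and nuclei with 0 UMIs of all 4 rule genes (marker-negative nuclei, 22480 in all) a median of 1731 to 3711, and the members' median was the higher one in each table. The widest gap was at IOT day 75, with 5071 against 3711 UMIs. Because deeper nuclei reach any UMI threshold more readily, shares were also counted after each nucleus was thinned to 1500 UMIs. Pairs of 10x tables shared between 16 and 92 cell barcodes, and none was shared with the Drop-seq table.

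Members made up 4.37% of the 10x control nuclei (191 of 4368, exact 95% interval 3.79 to 5.02) and 4.37% of the Drop-seq control nuclei (139 of 3178, 3.69 to 5.14). After IOT the share was 2.88% at day 2 (133 nuclei, 2.42 to 3.41), 2.65% at day 7 (107 nuclei, 2.18 to 3.20), 3.86% at day 21 (156 nuclei, 3.28 to 4.50) and 3.14% at day 75 (114 nuclei, 2.59 to 3.76). It was 3.96% after facial injury (343 nuclei, 3.56 to 4.39) and 3.99% with scratch lesions (312 nuclei, 3.56 to 4.44). The intervals of IOT days 2 and 7 lay below those of both controls, that of day 75 lay below the 10x control's, and the other 3 injury tables overlapped both controls. These intervals are Clopper-Pearson intervals for counting error and do not cover differences between libraries.

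After thinning, the shares were 2.06% in the 10x control, 2.77% in Drop-seq, 1.11%, 1.92%, 2.15% and 0.660% at IOT days 2, 7, 21 and 75, 2.39% after facial injury and 2.29% with scratch lesions. IOT days 2 and 75 were then the lowest tables, while day 7 sat next to the 10x control. The order of the tables therefore changed with thinning, and in the Drop-seq, day 7, facial injury and scratch lesion tables thinning also removed 1195, 1483, 2682 and 1440 shallower nuclei.

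**Figure D1:**
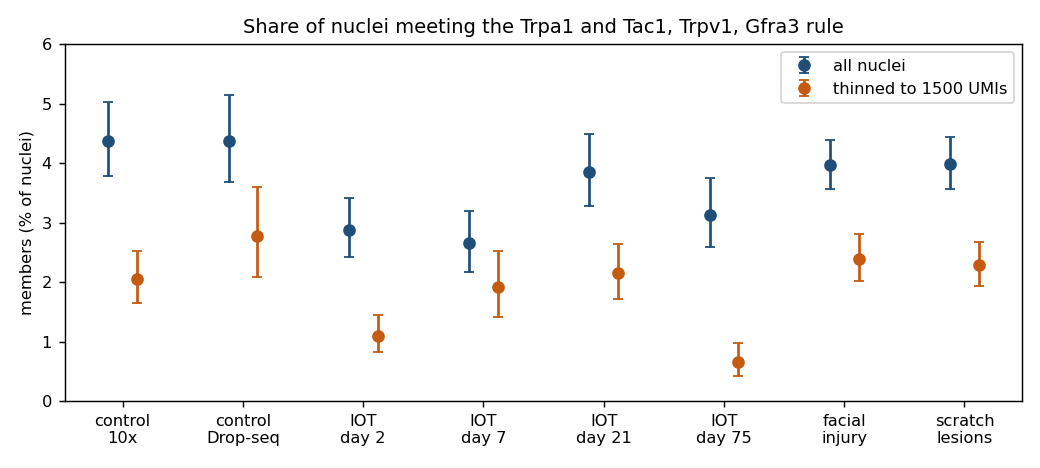
Share of nuclei that are members in each of the 8 tables, in percent of all nuclei, as counted and after thinning every nucleus to 1500 UMIs. Bars are exact 95% intervals for counting error; IOT day 75 has 3.14% as counted and 0.660% after thinning.

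Nefh encodes the heavy neurofilament of large myelinated neurons, and S100b a calcium-binding protein of the same neurons. The rule was also applied to nuclei with UMIs of both. Between 1.20% (IOT day 7) and 3.72% (scratch lesions) of these nuclei were members, at depths above the table median (2221 to 5234 UMIs for those that were not members). Thinned to 1500 UMIs, the share was 1.11% among Nefh and S100b nuclei and 2.61% among the rest over all tables, and the first was the lower one in each table. From 12.1% (day 7) to 60.5% (day 75) of the members held both large-neuron transcripts, with 24.1% in the 10x control. The same was true of 28.6% (day 7) to 57.1% (Drop-seq) of marker-negative nuclei, so that members had the lower share in 6 of 8 tables and the higher one at IOT days 2 (38.3% against 36.5%) and 75 (60.5% against 53.1%). Day 75 was the deepest table, and counts of called genes without the Nefh and S100b members are given beside each test. Only members were left out for these counts, and the other classes kept their nuclei with this pair. That lowers large-neuron transcripts on the member side alone, so these counts cannot show the part of large-neuron RNA in the differences.

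The rule genes themselves varied among tables, given here as UMIs scaled to a common total (CPM, 1000000 UMIs) over the summed members in the order 10x control, Drop-seq, IOT days 2, 7, 21 and 75, facial injury and scratch lesions. Trpa1 stood at 571, 749, 501, 721, 586, 184, 715 and 643 CPM. Tac1 stood at 1930, 3478, 1316, 2550, 3136, 782, 2474 and 1964 CPM. IOT day 75 was lowest for both, as it was for Trpv1 (73.5 CPM, against 150 to 355 elsewhere) and Gfra3 (163 CPM, against 270 to 445). A Tac1 UMI was present in 97.4% to 100% of members, a Gfra3 UMI in 49.3% to 76.7% and a Trpv1 UMI in 36.0% to 56.1%. Members with a single Trpa1 UMI made up 48.2% of the 10x control members and 77.2% of those at day 75.

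The label was checked against transcripts that the rule did not use. At least 1 UMI of Calca, the gene of CGRP, was found in 92.1% to 98.4% of members of each table, and in 17.8% (IOT day 7) to 65.8% (facial injury) of marker-negative nuclei, with 27.5% in the 10x control. The gap was narrower at IOT day 75 (64.5% of marker-negative nuclei), after facial injury and with scratch lesions (60.9%) than in the other 5 tables. Among 9 tested genes of a peptidergic nociceptor list (10 listed), 8 were higher in members than in marker-negative nuclei and none was lower. Scn9a, the gene of the sodium channel Nav1.7, did not pass the test (log2 difference 0.11 ± 0.07, adjusted p = 0.182). The members thus carried more of these transcripts than marker-negative nuclei. The classes most like the members are set against them further below.

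The main comparison set the summed members of each of the 7 10x tables against the summed marker-negative nuclei of the same table, with the table as a block. Of 13320 genes tested, 2911 were higher in members (21.9% of all tested) and 2683 were lower (20.1%) by edgeR's quasi-likelihood test at a Benjamini-Hochberg adjusted p of 0.05. Such shares are the background for every count below. All fold changes are log2 differences of fitted levels, with standard errors, and the median over all genes tested was 0.01. The Drop-seq table was in no fit: of the called genes with at least 10 UMIs there, 85.1% of the 2659 higher ones and 84.8% of the 2409 lower ones had the same direction, while 51.3% of all tested genes were higher in members.

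Neuropeptides were the group with the highest median, with 9 of 11 tested genes higher and 1 lower (26 listed, median 1.39). Calca stood at 1926, 4951, 1454, 2401, 2903, 1003, 3867 and 4436 CPM in members and at 198, 519, 211, 189, 228, 350, 818 and 698 CPM in marker-negative nuclei. The lowest member table, IOT day 75, was above the highest marker-negative table, so the groups did not overlap. The log2 difference was 2.77 ± 0.18 (adjusted p = 2.69e-10 by edgeR's quasi-likelihood test, higher in 7 of 7 tables). Calcb, which encodes the second CGRP peptide, ran from 72.3 to 353 CPM in members of the 10x tables against 24.3 to 104 CPM. Its groups overlapped across tables, yet it was higher in every table (2.07 ± 0.13).

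Adcyap1 encodes PACAP, a vasodilator peptide of nociceptor endings. It stood at 362, 481, 197, 505, 265, 105, 318 and 454 CPM in members and at 12.5, 9.72, 34.9, 31.2, 18.6, 17.6, 39.3 and 48.5 CPM in marker-negative nuclei, with no overlap between the groups. The log2 difference was 3.37 ± 0.19 (adjusted p = 7.74e-11, edgeR's quasi-likelihood test). Cartpt, the precursor of the CART peptides, reached 114 CPM in 10x control members and 382 CPM with scratch lesions, against 4.56 and 49.9 CPM in marker-negative nuclei (3.36 ± 0.22). The lowest member value, 18.7 CPM at day 75, was under the scratch lesion value of the marker-negative nuclei, so for Cartpt the groups overlapped across tables but not within one.

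**Figure D2:**
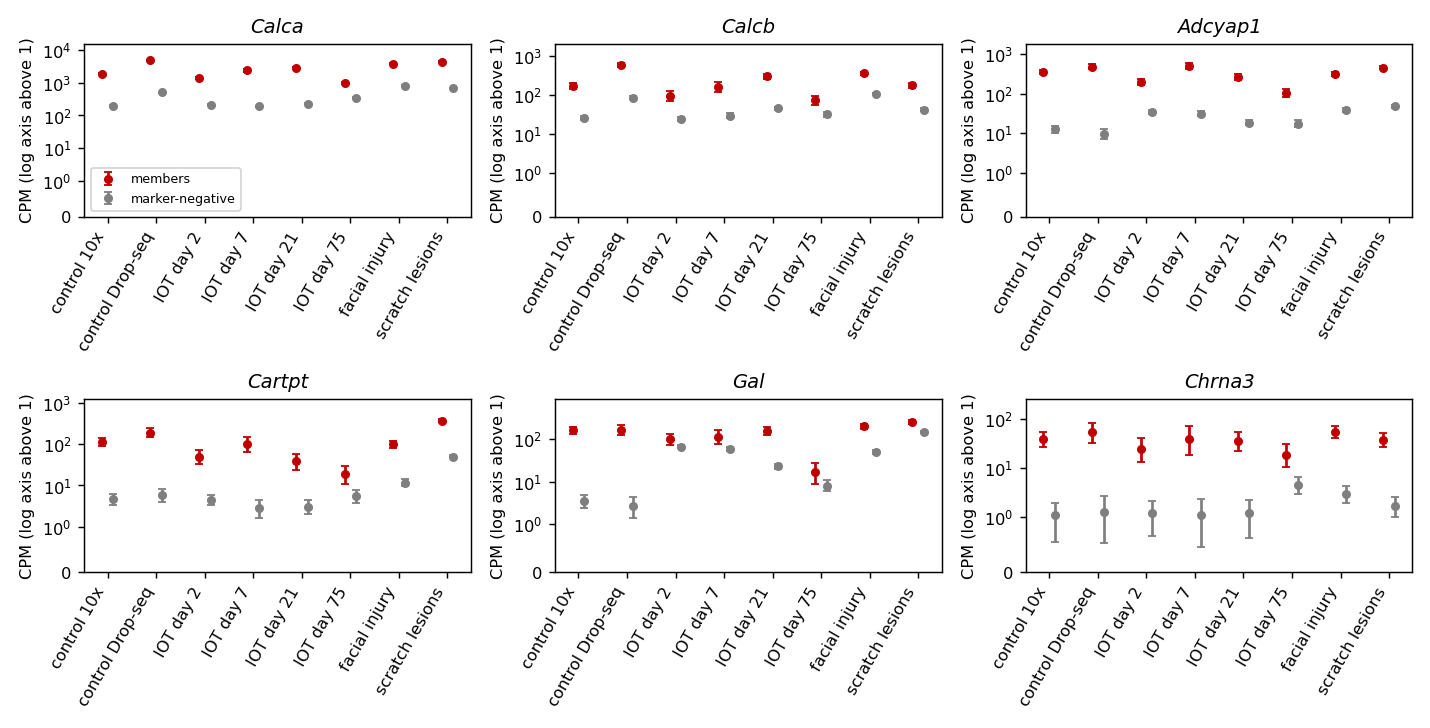
Levels of Calca, Calcb, Adcyap1, Cartpt, Gal and Chrna3 by table in members (red) and marker-negative nuclei (grey), in CPM on an axis that is logarithmic above 1 and linear below, with exact Poisson 95% intervals for counting error. Members lie above marker-negative nuclei in all 8 tables for each of the 6 genes, with Calca in members between 1003 and 4951 CPM.

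Galanin (Gal), a peptide that sensory neurons make after axotomy, was also higher in members, with 155 CPM in the 10x control against 3.47 CPM. Its log2 difference was 1.78 ± 0.34 (adjusted p = 0.000226, edgeR's quasi-likelihood test), with groups that overlapped across tables (16.3 to 244 CPM in members, 3.47 to 141 CPM in the others). Bdnf, a growth factor released onto spinal neurons, was higher by 0.94, Nmb, an itch-related peptide, by 0.74 and Sst, the precursor of somatostatin, by 1.39. The call of Sst was lost under 5 of the 17 alternatives in which it was tested, DESeq2 among them. Nts, the precursor of neurotensin, was the 1 lower peptide gene (-0.57), and it lost this call under 11 of 19 alternatives, DESeq2 among them (highest adjusted p = 0.681). Of the genes that process peptides or receive them, 6 of 15 were higher, led by the granule protein Scg2 (1.72 ± 0.14) and Pam (1.43 ± 0.12), the enzyme that amidates substance P and CGRP. Another 7 were lower, among them the prohormone convertase Pcsk1 (-1.16).

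The upstream sequences of the 3 peptide genes with the largest differences are shown as description. Each is the 250 bases before the annotated RefSeq start on build GRCm38.p6, read 5′ to 3′ along the gene's strand. Capitals mark TGACG or its reverse complement CGTCA, the core of the cAMP response element; the whole element is TGACGTCA.
Calca, chr7:114636358-114636607 (minus strand): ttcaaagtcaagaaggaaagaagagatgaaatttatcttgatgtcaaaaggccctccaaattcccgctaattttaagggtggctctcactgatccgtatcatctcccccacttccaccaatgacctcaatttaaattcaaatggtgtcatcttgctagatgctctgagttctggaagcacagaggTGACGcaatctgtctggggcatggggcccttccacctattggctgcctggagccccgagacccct
Adcyap1, chr17:93198767-93199016 (plus strand): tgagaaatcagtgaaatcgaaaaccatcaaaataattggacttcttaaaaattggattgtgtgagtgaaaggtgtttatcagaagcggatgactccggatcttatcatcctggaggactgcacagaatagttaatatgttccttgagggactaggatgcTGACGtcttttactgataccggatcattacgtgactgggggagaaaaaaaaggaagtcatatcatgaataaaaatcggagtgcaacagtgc
Cartpt, chr13:99900684-99900933 (minus strand): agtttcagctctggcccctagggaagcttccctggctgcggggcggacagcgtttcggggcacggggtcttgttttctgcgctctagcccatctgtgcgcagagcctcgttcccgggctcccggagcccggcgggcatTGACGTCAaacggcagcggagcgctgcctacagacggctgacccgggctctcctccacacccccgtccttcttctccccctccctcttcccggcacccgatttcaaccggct
Calca and Adcyap1 each hold 1 core match on either strand and Cartpt holds 2, which overlap within 1 full element. The full element occurs in 508 of 32851 upstream windows of this length (1.55%) and the core in 5836 (17.8%). A match describes the letters of these windows and no binding was measured.

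Nicotinic acetylcholine receptor subunits held the highest log2 differences of any listed gene. Chrna3, the alpha3 subunit of ganglionic receptors, stood at 39.3, 53.1, 24.5, 39.2, 35.2, 18.7, 54.7 and 37.2 CPM in members and at 1.09, 1.31, 1.25, 1.14, 1.25, 4.51, 3.02 and 1.69 CPM in marker-negative nuclei. The groups did not overlap, and the log2 difference was 4.13 ± 0.29 (adjusted p = 5.69e-10, edgeR's quasi-likelihood test). Chrnb4, its usual partner, was lower in level but further apart (4.67 to 23.5 CPM against 0.226 to 1.04 CPM, 4.72 ± 0.37). Chrnb3 (3.99 ± 0.27) and Chrna6 (1.75 ± 0.20), which assemble together in other neurons, were higher as well. Chrna7, the subunit of the homomeric receptor, was lower (-0.88). Chrna3 and Chrnb4 lie side by side on chromosome 9 (55010111 to 55026562 and 55028154 to 55048779) and Chrnb3 and Chrna6 on chromosome 8 (27368711 to 27399730 and 27403212 to 27413944), on mm10 with GENCODE coordinates. Of 39 ligand-gated channel genes tested, 12 were higher and 18 lower (median -0.30), with the GABA-A subunit Gabrb2 (-2.66) and the AMPA receptor subunit Gria3 (-2.03) among the lowest.

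Among other TRP channels, 4 of 14 were higher and 5 lower (median -0.16). Trpm3, a heat- and steroid-gated channel, was the highest, at 600 to 1115 CPM in members of the 10x tables and 139 to 316 CPM in marker-negative nuclei, without overlap (1.69 ± 0.11). Trpm8, the cold and menthol channel, was lower in all 7 tables (-1.64 ± 0.15). Of 8 genes for proteins that bind or modulate TRP channels, 7 were higher than in marker-negative nuclei and none lower (median 0.66). They included Tmem100 (1.96 ± 0.14), an adaptor between Trpa1 and Trpv1, Fgf13 (1.20), a partner of sodium channels, and Pirt (1.12), a phosphoinositide-binding regulator of Trpv1. Prkca, of the protein kinase C family, was higher by 0.57 as counted and at a log2 value of -0.072 after thinning. Plcb3 (0.74) and Anxa2 (0.59) were higher as counted and lost their calls after thinning.

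Voltage-gated channels moved in both directions. Of 14 sodium channel genes, 4 were higher and 7 lower (median -0.27). Scn10a, which encodes the tetrodotoxin-resistant channel Nav1.8, stood at 623, 688, 522, 560, 583, 606, 638 and 728 CPM in members and at 420, 438, 321, 408, 264, 431, 475 and 390 CPM in marker-negative nuclei. The groups did not overlap and the log2 difference was 0.61 ± 0.08. With nuclei thinned to 1500 UMIs before the rule, which also changed the classes, it was -0.062. Scn11a, the gene of Nav1.9, was higher by 1.0 ± 0.10, and the accessory subunits Scn2b (1.72) and Scn3b (1.46) were higher too. Scn1a and Scn8a, channels of fast-spiking large neurons, were lower (-1.74 and -1.08).

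Among 44 potassium channel genes, 13 were higher and 22 lower (median -0.20). Kcnc2 (1.69), Kcnk3 (1.64), a background channel blocked by acid, and Kcnmb2 (1.62), a subunit of calcium-activated channels, led the higher ones. Kcnh5 (-2.10), Kcnip4 (-1.37) and Kcna1 (-1.32), a channel of large axons, were among the lower ones. Of 17 calcium channel genes, 7 were higher and 7 lower (median -0.06). Cacna1e, the R-type channel (1.86), and Cacna1c, the L-type channel (1.57), were highest. Of 10 genes for HCN channels and anoctamins, 7 were lower and 1 higher (median -0.70), with Ano4 lowest (-2.34).

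Against marker-negative nuclei, receptors for inflammatory mediators were more often higher than lower, with 18 of 40 tested genes higher and 9 lower (50 listed, median 0.34). Tlr4, the receptor for bacterial lipopolysaccharide (2.65), Htr1a, a serotonin receptor (2.60), and Ptger1, a prostaglandin E2 receptor (2.02), led the list. Htr7 (-2.13) and Htr1d (-1.77), other serotonin receptors, were lower. Of 16 inhibitory receptor genes, 8 were higher and 6 lower (median 0.11). Oprm1, the mu opioid receptor, stood between 162 and 375 CPM in members of the 10x tables and between 65.9 and 123 CPM in marker-negative nuclei, without overlap (1.44). Npy1r, a neuropeptide Y receptor, was higher by 2.32, while Oprd1, the delta opioid receptor, was lower (-1.45), as was the metabotropic glutamate receptor Grm8 (-1.99). Lpar1, a lysophosphatidic acid receptor, was among the higher genes outside these lists (2.70).

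Of 35 transcription factors of sensory neurons, 11 were higher and 15 lower (median -0.31). Zeb2 (1.30) and Prdm12 (0.90), a factor that nociceptors need to form, were higher, and Esrrg (-2.53), an orphan nuclear receptor, was lowest. Of 16 neurotrophic factor receptors, Ret (0.77) and Ngfr (0.76) were higher and 7 were lower, led by the co-receptor gene Sorcs3 (-2.18) and Ntrk2 (-1.86), the receptor of Bdnf. Among 29 genes of transmitter release, 10 were higher and 15 lower (median -0.24), with Syt4 (1.42), Syt9 (1.41) and Sv2a (1.24) higher and the vesicular glutamate transporter Slc17a7 (-1.35) and Sv2b (-1.21) lower.

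**Figure D3:**
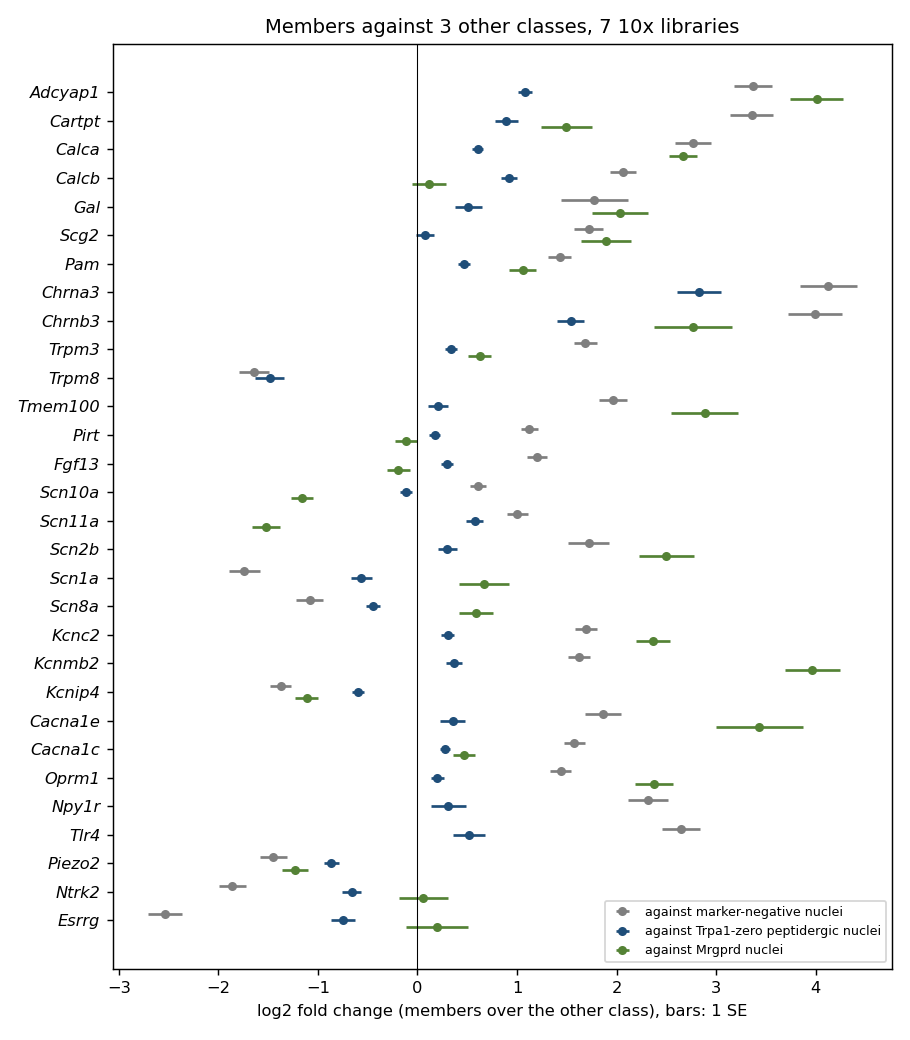
Log2 fold change of members over marker-negative nuclei (grey), Trpa1-zero nuclei (blue) and Mrgprd nuclei (green) for 30 named genes over the 7 10x tables, with bars of 1 standard error. A missing point is a gene that was not tested in that comparison; Chrna3 has 4.13 against marker-negative and 2.83 against Trpa1-zero nuclei, and Scn11a has 1.0, 0.58 and -1.52 against the 3 classes.

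Some of the largest differences fell on genes of other functions. Gpx3, a secreted glutathione peroxidase, was higher by 3.64, the calcium pump gene Atp2b4 by 3.34, the retinoic acid enzyme gene Aldh1a3 by 3.31 and the nitric oxide synthase gene Nos1 by 2.42. The largest log2 difference among genes with at least 50 CPM belonged to Rpl5-ps1, a processed pseudogene (4.88 ± 0.20). Rpl5-ps1 lies on chromosome 1 (14865072 to 14865965, plus strand), 6683 bases beyond the 3′ end of Trpa1 (14872648 to 14918862, minus strand), and introns were counted. Whether its reads came from Trpa1 transcripts was not tested.

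Markers of other cells were read in the same fit. Of 14 large-neuron markers, none was higher and 13 were lower (median -1.11), and their summed level was 1512 to 4617 CPM in members against 4928 to 14649 CPM in marker-negative nuclei. Day 75 had the highest member sum. Non-peptidergic nociceptor markers were split, with 2 of 7 higher and 2 lower (median 0.15), and both cold-neuron markers tested were lower. Itch-neuron markers had 4 of 8 higher and 2 lower (median 0.88), with Mrgprx1 higher by 3.07 and Nts and the serotonin receptor gene Htr1f (-1.50) lower. Their summed level was lower in members than in marker-negative nuclei in 7 of 8 tables (112 against 240 CPM in the 10x control) and higher with scratch lesions (273 against 207 CPM). Osmr, an oncostatin M receptor subunit, was higher by 1.56 but lost its call after thinning (adjusted p = 0.244, edgeR's quasi-likelihood test). Of 5 low-threshold C fiber markers, Th was higher (1.98), Cdh9 (-1.28) and Fam19a4 (-0.82) were lower, and the median was -0.27.

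Satellite glia markers had 2 of 8 genes higher and 1 lower (median 0.27), with a summed level of 390 to 1158 CPM in members and 304 to 952 CPM in marker-negative nuclei and the member sum higher in each table. Schwann cell markers had 1 of 8 higher (median 0.00), at 568 to 1535 CPM against 444 to 1239 CPM. Fibroblast markers (0 of 6 called), vascular markers (1 of 5 higher and 1 lower) and leukocyte markers (0 of 1 called) were low, with leukocyte sums of 0 to 19.7 CPM in members. The part of glial RNA in the differences above was not tested. Fabp7, Lpar3 and Myh11 were higher as counted and had log2 differences of -0.049, -0.13 and -0.12 after thinning.

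With the table block removed 2096 genes were called in place of 5594. After thinning, which came before the rule, 3081 of 11209 genes tested were called. Without the Nefh and S100b members 2183 were higher and 2613 lower of 13070 tested.

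The closest comparison class was 3385 nuclei (in all 8 tables) with no Trpa1 UMI and at least 3 UMIs of Tac1, Trpv1 and Gfra3 together. This class shares the sum threshold with the members but not the level of the summed transcripts. In the 10x control 156 of 191 members reached a sum of 5, against 182 of 364 Trpa1-zero nuclei. Differences that go with Trpa1 and differences that go with the higher sums therefore cannot be told apart here. Median depth of the Trpa1-zero nuclei was 1650 to 5393 UMIs per nucleus, against 1792 to 5071 in members. The 3 comparisons share the same member sums, so their values are set side by side and are not independent. Of 10180 genes tested, 465 were higher in members (4.57%) and 600 were lower (5.89%), with a median of 0.00.

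Chrna3 was the gene furthest apart. It stood at 4.37, 10.1, 1.54, 9.51, 3.03, 6.88, 5.02 and 3.85 CPM in the Trpa1-zero nuclei, below the member value of every table, and the lowest member table (18.7 CPM) was above the highest Trpa1-zero table. The log2 difference was 2.83 ± 0.22 (adjusted p = 6.19e-13, edgeR's quasi-likelihood test). Chrnb3 followed among receptor genes (13.5 to 60.3 CPM in Trpa1-zero nuclei of the 10x tables and 25.7 to 149 CPM in members, 1.54 ± 0.14), while Chrna7 was lower (-1.26). Other genes higher in members were Mrgprx1 (1.45), Aldh1a3 (1.38), Nos1 (1.17), Atp2b4 (1.10) and Lpar1 (1.07). Rpl5-ps1, next to Trpa1, was higher by 1.97.

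Peptide genes again were higher, by less. Of 10 tested, 6 were higher and none lower (median 0.40). Adcyap1 stood at 49.9, 126 and 282 CPM as the lowest, median and highest Trpa1-zero table of the 10x set, and at 105, 318 and 505 CPM in members (1.08 ± 0.07, higher in 7 of 7 tables). Calca was at 837, 1340 and 2931 CPM in Trpa1-zero nuclei and at 1003, 2401 and 4436 CPM in members. The 2 groups overlapped across tables but not within one (0.61 ± 0.06). Calcb (0.92), Cartpt (0.89) and Gal (0.51) were higher as well. In the 10x control 79.7% of Trpa1-zero nuclei held a Calca UMI, against 93.7% of members. Of 9 tested genes of the peptidergic nociceptor list, 4 were higher in members and 1 lower (median 0.13). Among 7 tested genes for proteins that bind or modulate TRP channels, 2 were higher and none lower (median 0.16). Among 28 tested receptors for inflammatory mediators, 3 were higher and 3 lower (median -0.05). Scg2 (0.08, adjusted p = 0.725), Tmem100 (0.20) and Scn10a (-0.11, adjusted p = 0.264) did not pass edgeR's quasi-likelihood test.

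Transcripts of large neurons were lower in members here too. Of 13 tested, 11 were lower and none higher (median -0.56), among them the parvalbumin gene Pvalb (-1.06), Piezo2, the gene of the touch channel (-0.87), Nefh (-0.60) and S100b (-0.54). Trpm8 was at 31.2 to 117 CPM in Trpa1-zero nuclei of the 10x tables and at 14 to 43.1 CPM in members, lower in 7 of 7 tables (-1.49 ± 0.15). Sodium channel genes split into 2 higher (Scn11a, 0.58, and Scn2b, 0.30) and 6 lower of 14, and potassium channel genes into 5 higher and 13 lower of 41. This comparison depended on the table block, since 1 gene was called without it, and on the tool, since DESeq2 called 588. Without the Nefh and S100b members 590 genes were higher and 739 lower of 8387 tested.

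The third class was 453 nuclei with at least 2 Mrgprd UMIs that were not members. Mrgprd marks non-peptidergic nociceptors, and it was not tested. Of 6800 genes tested, 725 were higher in members (10.7%) and 696 lower (10.2%), with a median of 0.02. In the IOT day 21 and facial injury tables the Mrgprd class held 14 and 11 nuclei, so the fit leaned on the other tables. Without the scratch lesions (153 nuclei) 960 of 4453 genes tested were called, against 1421 of 6800 with them. Without the Nefh and S100b members 466 were higher and 553 lower of 4158 tested.

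Rasef, a Rab-family GTPase gene, was the highest, with 43.2 to 102 CPM in members of the 10x tables and 0 to 1.77 CPM in Mrgprd nuclei (6.10 ± 0.54). Because most Mrgprd tables held no Rasef UMI, that value depends on the prior count. Adcyap1 (4.01 ± 0.27), Kcnmb2 (3.97), Nos1 (3.97) and Kcnk3 (3.49) followed. Calca stood at 167, 371 and 885 CPM as the lowest, median and highest Mrgprd table, below all member tables (2.67 ± 0.14, adjusted p = 8.40e-23 by edgeR's quasi-likelihood test). Calcb, in contrast, was at 41.3 to 323 CPM in Mrgprd nuclei and its difference of 0.11 did not pass the test (adjusted p = 0.747). A Calca UMI was in 56.7% of Mrgprd nuclei of the 10x control and in 96% of those at IOT day 75, where members had 92.1%. Of 9 tested genes of the peptidergic nociceptor list, 2 were higher in members and 2 lower (median -0.12). Among 7 tested genes for proteins that bind or modulate TRP channels, 1 was higher and 3 lower (median -0.19). Among 14 tested receptors for inflammatory mediators, 4 were higher and 6 lower (median -0.37).

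Genes of the non-peptidergic list were lower in members in 5 of 5 cases (median -2.46). Grik1, a kainate receptor subunit, stood at 3608 to 9911 CPM in Mrgprd nuclei and 374 to 1377 CPM in members (-3.41 ± 0.15). Prkcq (-3.36), a protein kinase C gene outside that list, and P2rx3 (-2.38), the gene of an ATP-gated channel, were lower as well. Both tetrodotoxin-resistant sodium channels were lower in members than in Mrgprd nuclei. Scn11a ran from 312 to 623 CPM in the Mrgprd class and from 85.6 to 250 CPM in members (-1.52), and Scn10a from 885 to 1614 CPM against 522 to 728 CPM (-1.16). Gap43, a growth cone protein, was higher (2.54), as were Oprm1 (2.38) and Ngfr (2.23), the low-affinity neurotrophin receptor.

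Members were not uniform, and the values in this paragraph are description, since Trpa1 UMIs chose the nuclei. Members with at least 3 Trpa1 UMIs had more Calca than members with 1 in 8 of 8 tables (1965 to 7222 CPM against 944 to 3920 CPM) and more Adcyap1 in 7 of 8 (290 to 777 CPM against 89.3 to 544 CPM), IOT day 7 being the exception. Scn10a ran the other way in 8 of 8 tables, with 134 to 676 CPM against 494 to 783 CPM. Nefh was also lower in 7 of 8. Members with UMIs of both Trpv1 and Gfra3 had more Calca and more Adcyap1 than members with neither in 8 of 8 tables, and less Nefh in 8 of 8. Members with both Nefh and S100b UMIs held 916 to 4801 CPM of Calca, and the other members 1323 to 5342 CPM. Nefh and S100b nuclei that were not members held 339 to 1276 CPM, below the members with this pair in each table. The part of free RNA in these levels was not tested.

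**Figure D4:**
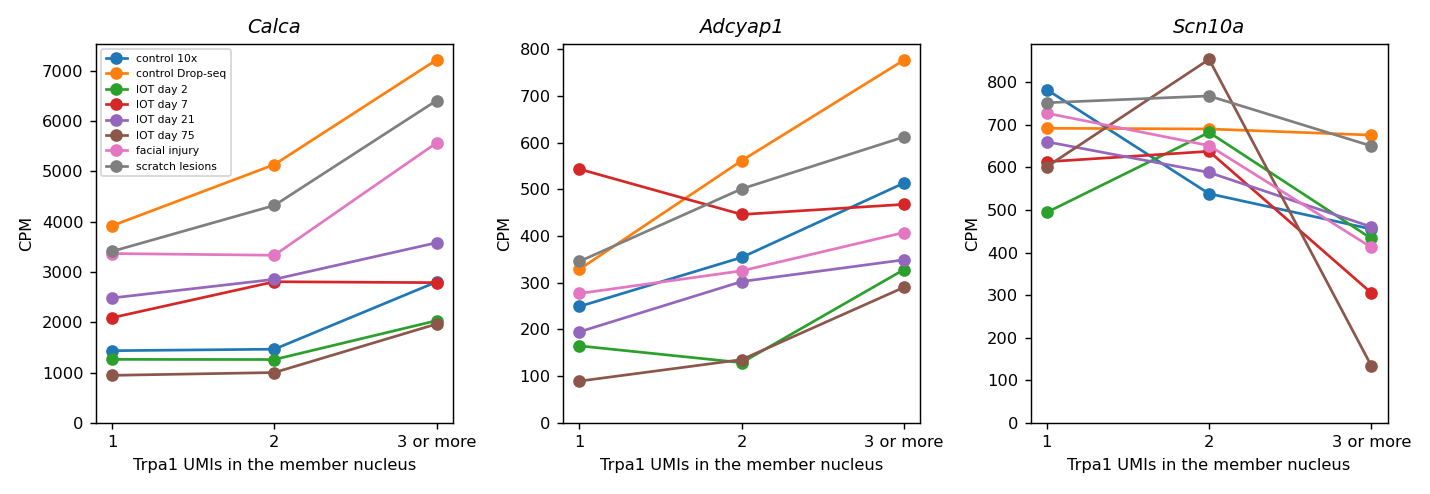
Levels of Calca, Adcyap1 and Scn10a (CPM) in members with 1, 2 and at least 3 Trpa1 UMIs, with 1 line per table and no error bars. Between 1 and at least 3 UMIs Calca is higher in 8 of 8 tables, Adcyap1 in 7 of 8, and Scn10a is lower in 8 of 8, although several tables do not change evenly through the middle group.

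Near the threshold the classes ran together. Nuclei just inside it, with a Trpa1 UMI and a sum of 3, held 369 to 2562 CPM of Calca, and nuclei just outside, with a sum of 2, held 261 to 3206 CPM, the first being higher in 5 of 8 tables. Scn10a was lower just inside in 6 of 8 tables. Further outside, 108 nuclei of the 10x control had Trpa1 and none of the other 3 transcripts, with 333 CPM of Calca, 1094 CPM of Scn10a and 39.3 CPM of Mrgprd. Few members carried at least 2 UMIs of another class marker, with 0 to 7.19% for Mrgprd. The highest share was in Drop-seq, where 3.83% of marker-negative nuclei did. Members also had the higher Mrgprd share with scratch lesions (14 of 312 nuclei, 4.49% against 1.33%) and at each IOT time. The IOT shares rest on 1 of 133, 2 of 107, 1 of 156 and 3 of 114 members, in order of time. At day 75 they were 2.63% (exact interval 0.546 to 7.50) against 0.574%. The members' interval held the marker-negative share at each IOT time, so no difference after IOT is read from these few nuclei. The members' share was the lower one in the 10x control (0% against 0.376%) and after facial injury (0% against 0.0748%).

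The injury tables were then read against the 10x control for the members alone, without tests. Atf3, a transcription factor that axotomised neurons switch on, was at 0, 0, 29.7, 11.7, 10.1, 3.50, 9.28 and 12.1 CPM in members and at 3.08, 8.41, 62.2, 92.7, 35.6, 8.70, 16.1 and 24.0 CPM in marker-negative nuclei. None of 191 10x control members held an Atf3 UMI, which allows a level of up to 3.47 CPM, and members of all 6 injury tables held some. Members were below marker-negative nuclei in each table. This order is not independent of the rule, since a nucleus that loses Tac1, Trpv1 and Gfra3 transcripts leaves the members and can enter the marker-negative class, so it is given as description. Sprr1a, another gene of cut axons, was at 10.5, 3.92, 1.68, 0, 2.06 and 4.66 CPM in members of the 6 injury tables against 19.0, 58.0, 17.2, 5.64, 8.82 and 11.2 CPM.

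Of 23 injury-induced genes tested, 8 were higher in members and 9 lower (median 0.07), with the same limit. Their order differed by table: the summed level was 2900 CPM in members against 1686 CPM in marker-negative nuclei of the 10x control and 3064 against 1703 CPM in Drop-seq, but 4127 against 4300 CPM at IOT day 2 and 2980 against 3808 CPM at day 7. In the other 4 tables members had the higher sum. Besides Gal, the higher ones included the transcription factors Klf6 (1.40) and Sox11 (0.51) and the growth cone gene Gap43 (1.13). Lower ones besides Atf3 included Gfra1 (-0.98), a receptor subunit for GDNF, and Flrt3 (-0.88). Sox11 in members was at 131 CPM in the 10x control and at 231, 153, 174, 93.3, 125 and 156 CPM in the injury tables, while marker-negative nuclei went from 49.2 CPM to 172, 136, 139, 66.7, 83.3 and 110 CPM. Marker-negative nuclei were thus above their control in all 6 injury tables, and members in 4 of 6. Immediate early genes stayed low, with Fos at 1.03 to 6.94 CPM and Egr1 at 1.75 to 14 CPM in members of the 8 tables. Junb was the 1 higher of 6 tested (1.0), and Jun did not pass the test (0.14).

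The genes that changed most between an injury table and the 10x control members mostly changed alike outside the class. Among the 5 largest rises and 5 largest falls of each of the 6 tables, 58 of 60 had the same direction in marker-negative nuclei and 53 of those were at least 2-fold there. Examples were Rab23, a GTPase gene (12.3-fold higher at IOT day 2 and 22.7-fold at day 7), Spint2, a protease inhibitor gene (8.62-fold at day 75), Serpinb1a (7.41-fold after facial injury) and Polg2, a subunit of the mitochondrial polymerase (27.3-fold with scratch lesions). The exceptions were both peptide genes at IOT day 75. Gal was at 16.3 CPM in members of that table against 155 CPM in the control, and at 8.06 against 3.47 CPM in marker-negative nuclei. Cartpt was at 18.7 against 114 CPM, and at 5.48 against 4.56 CPM. Of the members at day 75, 60.5% held both Nefh and S100b UMIs, against 53.1% of marker-negative nuclei of that table and 24.1% of members in the 10x control, and the part of these shares in the lower peptide levels was not tested.

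**Figure D5:**
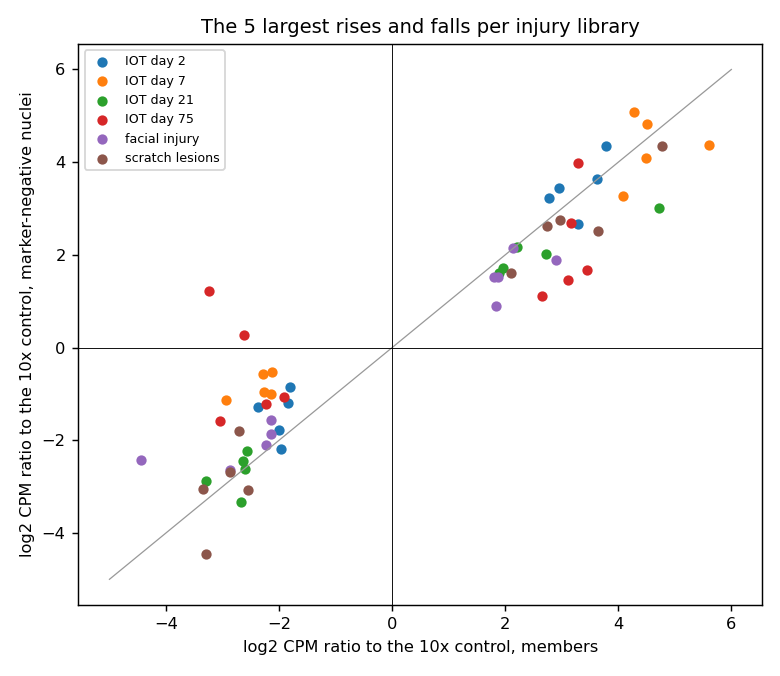
Log2 ratio of CPM in an injury table to the 10x control, in members (x axis) and in marker-negative nuclei (y axis), for the 5 largest rises and 5 largest falls of members in each of the 6 injury tables, with a diagonal line of equal ratios. Each point is 1 gene in 1 table; 58 of 60 points have the same sign on both axes, and the 2 exceptions at the upper left are Gal and Cartpt at IOT day 75.

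Peptide and channel levels in members after injury had no common direction. Calca was above the 10x control in 4 of 6 injury tables and below it in 2, Adcyap1 above in 2 and below in 4, and Cartpt above in 1 and below in 5. Tmem100 was above its control in 6 of 6, and Pam and Atp2b4 were below theirs in 6 of 6. All these counts use the same 1 control library. A count of 6 of 6 thus says only that this library held the lowest or highest member value among the 10x tables. The share of all genes with such a count was not taken, so these genes are not read as responses to injury. Whether the member contrast itself differed between skin damage (2 tables) and IOT (4 tables) was the 1 contrast with more than 1 library on each side. Of 13373 genes tested for this interaction, 0 were called higher after skin injury (0%) and 0 lower (0%) by edgeR's quasi-likelihood test, with 411 at an unadjusted p under 0.05; DESeq2 called 0, with 141 at an unadjusted p under 0.05. Without the Nefh and S100b members 13 of 13117 genes tested were called, 12 higher after skin injury and 1 lower. With 4 residual degrees of freedom and a strain that differs in 1 of the 2 skin-damage tables, this test says little about the size of any difference.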

How the data were processed

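Trigeminal nuclei were measured by 10x and Drop-seq RNA sequencing, and the deposited tables hold whole-number UMI counts per gene and nucleus, which the authors made with introns included on mm10. The submitters' processing notes list STAR 2.5.3a, Seurat 2, Cell Ranger 2.1.0 and bcl2fastq 2.17. The authors filtered nuclei and removed non-neuronal clusters. No doublet caller was run here, and leaving out nuclei above 3 times a table's median UMIs was an alternative. Members and comparison classes were summed per table, since nuclei are not replicates. The samples behind a table are pools of mice, so p-values measure the spread between tables, which differ in condition.

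Sums were tested with edgeR 4.0.16 (R 4.3.3) by the quasi-likelihood test with TMM scaling, its filter on low counts, table as block and Benjamini-Hochberg adjustment at 0.05 over all genes tested. The 4 rule genes (and Mrgprd in its comparison) were not tested. Residual degrees of freedom were 6, 6, 6 and 4. The block is the table from which both sums came. Of 17608, 17608, 17607 and 17706 genes in all tables of each fit, 13320, 10180, 6800 and 13373 passed the filter. CPM have exact Poisson and shares Clopper-Pearson 95% intervals (scipy 1.17.1, Python 3.11.15), for counting error only, and the floor was 3 counts. The edgeR fit of each comparison was also run on simulated counts with 200 changed genes. These counts were drawn around each gene's mean over all sums of the fit, so gene differences between tables were not simulated. Depth was 7735811 to 22003842 UMIs per table.

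Members and gene lists were chosen with earlier results of these data known. Genes were named as the 4 rule genes, the 12 highest and 12 lowest called differences of each comparison with 1 direction in 7 tables and at least 50 CPM, up to 6 called genes per list plus those whose role the text needs, injury and immediate early genes, and the 5 largest rises and falls per injury table with at least 100 CPM. Alternatives were DESeq2 1.42.0, other scalings, no filter, no block, each table left out, Drop-seq added, other thresholds, thinning to 1500 or 1000 UMIs, and Atf3 nuclei left out. Leaving out members with Nefh and S100b UMIs was chosen after seeing the data, and the other classes kept such nuclei. GENCODE vM21 matched 22593 of 24243 symbols (93.2%) and 236 of 242 named genes. Upstream windows are from RefSeq on GRCm38.p6.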

Additional observations from a re-analysis of the deposited data

Results flagged for a closer look

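Of the named genes, 14 had ratios to the 10x control members that pointed one way in all 4 IOT tables and the other way in both skin-damage tables. The differences between the 2 kinds of injury were not tested by this pattern, and the interaction test above called none of them. The smallest gap on the log2 scale between an IOT table and a skin-damage table was as follows. Lower after IOT and higher after skin damage were Cox7c, a cytochrome oxidase subunit (0.89), Gal (0.36), Gm10169 (0.34), Syt4 (0.24), Scn10a (0.08) and Scg2 (0.06). The opposite pattern was seen for Lrrc17 (2.44), Lrrc48 (1.94), Cinp (1.31), RP23-106G8.4 (1.22), the myosin gene Myo10 (0.99), Cks1brt (0.70), the channel gene Trpc1 (0.38) and the calcium channel subunit Cacna2d3 (0.35). Marker-negative nuclei showed the same split for Cinp, Cox7c, Gm10169, Lrrc17, Myo10 and RP23-106G8.4, so for these 6 it was not particular to the members. Genes were named partly for large ratios in these tables. Every ratio uses the same 1 control library, and the share of all genes with such a split was not counted.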

How the results depend on the processing

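Against marker-negative nuclei, 5594 genes were called, 2096 without the table block and 3081 after thinning to 1500 UMIs (11209 genes tested). Leaving out each table gave 4818 to 5617. Against Trpa1-zero nuclei, 1065 were called, 588 by DESeq2 and 1 without the block. Calls were 532 of 8747 genes tested with a sum of at least 5, and 241 of 4104 after thinning. They ran from 826 to 1028 with a table left out. Against Mrgprd nuclei, 1421 were called, and 804 without the block. Calls were 248 of 933 genes tested after thinning, and 896 of 3367 with at least 2 Trpa1 UMIs. With a table left out they ran from 960 of 4453 (without scratch lesions) to 1402 of 6822. The skin-damage interaction had 0 calls, 1 with no filter, 2 with at least 2 Trpa1 UMIs, 13 without Nefh and S100b members, and 0 with any table left out. Without TMM scaling the main split was 3410 higher and 2262 lower. The member share of 3.70% became 1.69% with at least 2 Trpa1 UMIs, 1.92% and 1.28% thinned to 1500 and 1000 UMIs, and 4.50% and 2.74% with sums of at least 2 and 5. After thinning, log2 values reversed for Scn10a (-0.062), Prkca (-0.072), Fabp7 (-0.049), Lpar3 (-0.13) and Myh11 (-0.12). Thinning removes reads and nuclei at once, and it came before the rule, so nuclei also changed class. In the 10x control, where thinning left out 0 nuclei, the marker-negative class went from 2660 to 3293 nuclei. The reversals are therefore not a correction for depth alone. The cause of the other moves was not tested. Of 131 genes named in the main comparison, 100 were called under every alternative in which they were tested; of 24 against Mrgprd nuclei, 24, although 19 were not tested after thinning; and of 24 against Trpa1-zero nuclei, 0, since removing the block left 1 call. The depth of 107 to 343 members per table limits genes under about 10 CPM.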
